A study of Homo sapiens with 12 samples.

Results

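PC3 is an established human prostate cancer cell line that was grown from a bone metastasis. What is described here is its transcriptome in the absence of drug, in the 3 of 12 RNA-sequencing libraries whose treatment label is PBS (group name BLANK). The members were chosen by that label alone, and no measured value entered the choice. The other 9 libraries were 3 of cells given AgNPs (the usual abbreviation of silver nanoparticles), 3 of cells given DOC and 3 of cells given both (COM). All 12 are PC3 cells labelled wild type. DOC is not spelled out in the labels, which also state no dose, exposure time or batch and do not say that replicates were separate cultures, so errors and p-values measure the spread between these libraries. PC3 is a single line, so the values describe that line and not prostate cancer at large.

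A normal prostate gland has luminal cells, which depend on androgen and secrete kallikreins, basal cells, which make the transcription factor p63 and keratins 5 and 14, and rare neuroendocrine cells, which make chromogranins. PC3 is widely used as a model of disease that grows without androgen. A transcriptome read in bulk gives a mean over all cells in the dish, in which fewer cells of a kind and less RNA per cell cannot be told apart.

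The linear transcript rows of the table were summed to 43613 genes, and 36572 of them had a count in BLANK. The 3 libraries held 22573481, 22693620 and 22769479 counts on these genes. A level is given as TPM, the FPKM of a gene's rows rescaled to the same total in every library, which allows comparison between genes of different length. A gene was called expressed at 1 TPM or more in each of the 3 libraries, and silent at 3 counts or fewer in each. In these libraries 3 counts, the limit that a count of 0 allows, lay between 0.132 and 0.133 CPM (counts scaled to library size), a limit that covers counting error only. By these rules 16286 genes were expressed, 17847 were silent, 9482 were neither, and 2 met both rules. Of the silent genes 10365 are not in RefSeq, and on RefSeq rows only 8451 genes were silent.

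Of 17309 protein-coding genes with a row, 11835 were expressed, which is 68.4%, and 3061 were silent. The median expressed protein-coding gene stood at 24.0 TPM. Mean levels reached 10 TPM in 8883 protein-coding genes, 100 TPM in 1390 and 1000 TPM in 102. RNA was concentrated in few genes, as 380 genes held 50% of all TPM. Among long noncoding RNA genes 2025 were expressed and 4071 silent.

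The luminal programme was present in part. Of 19 luminal and androgen-axis genes with a row, 12 were expressed and 6 were silent. HOXB13, a homeobox factor of the prostate lineage, had 241, 243 and 239 TPM in the 3 libraries (240.97 ± 1.77, SD, n = 3). NDRG1, an androgen- and hypoxia-regulated gene, averaged 208 ± 2.54 TPM, and FOXA1, a pioneer factor that opens chromatin for other factors, averaged 129 ± 3.31 TPM. The surface antigen STEAP1 followed at 47.2 ± 2.50 TPM. The replicate libraries of these 4 genes kept the same order, with no overlap between neighbouring genes.

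Other luminal genes stood lower. FKBP5, a co-chaperone of steroid receptors, averaged 19.5 TPM, the solute carrier SLC45A3 15.8 TPM and the racemase AMACR 14.7 TPM. The GATA factors GATA2 and GATA3 averaged 9.30 and 7.66 TPM. At the silent end, the protease genes TMPRSS2 and KLK4 and the secreted protein gene MSMB had 0 counts in all 3 libraries. FOLH1, which encodes prostate-specific membrane antigen, had 2, 1 and 0 counts. The kallikrein genes KLK2 and KLK3 have no row in the table used here and were not analysed here. Expressed genes of this list thus include the transcription factors HOXB13, FOXA1 and GATA2 and the membrane proteins STEAP1 and SLC45A3. The silent genes named here encode secreted or membrane proteins. Membrane proteins thus lay on both sides, whereas no transcription factor named here was silent.

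Basal markers were also expressed in part. Of 13 basal genes 8 were expressed, headed by the hyaluronan receptor CD44 at 193, 169 and 177 TPM, the laminin-binding integrin ITGA6 at 70.0 ± 0.857 TPM, the linker protein gene DST at 45.4 ± 2.53 TPM and the laminin chain LAMA3 at 42.6 ± 0.999 TPM. ITGA6, DST and LAMA3 are genes of adhesion to the basement membrane or of its links to the cytoskeleton. TP63, which encodes the defining basal transcription factor, was at 0.270, 0.155 and 0.0957 TPM. KRT5 was at 0.0964, 0 and 0 TPM, and KRT14 and the nerve growth factor receptor gene NGFR were at 0 in all 3 libraries. The defining basal markers were thus at or near 0 while CD44, ITGA6, DST and LAMA3 on the same list were abundant.

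The neuroendocrine list split evenly, with 7 of 16 genes with a row expressed and 7 silent. The 7 expressed genes include REST, which represses neuronal genes and so is not a marker of these cells. CHGA and CHGB, which encode the chromogranins of secretory granules, and the factor NEUROD1 had no count. NCAM1, a neural adhesion molecule, was at 0, 0 and 0.0191 TPM, and SYP, the synaptic vesicle protein gene, at 0.809, 0.388 and 0.459 TPM. Fewer than 50% of the SYP counts lay on RefSeq rows, so its value is uncertain. The highest gene of the list was PEG10, a retrotransposon-derived gene, at 281 ± 6.94 TPM. REST had 30.4 ± 0.877 TPM, the neuronal enolase ENO2 24.3 ± 0.212 TPM and the neural factor POU3F2 9.66 ± 0.670 TPM. INSM1 has no row in the table used here and was not analysed here.

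**Figure D1:**
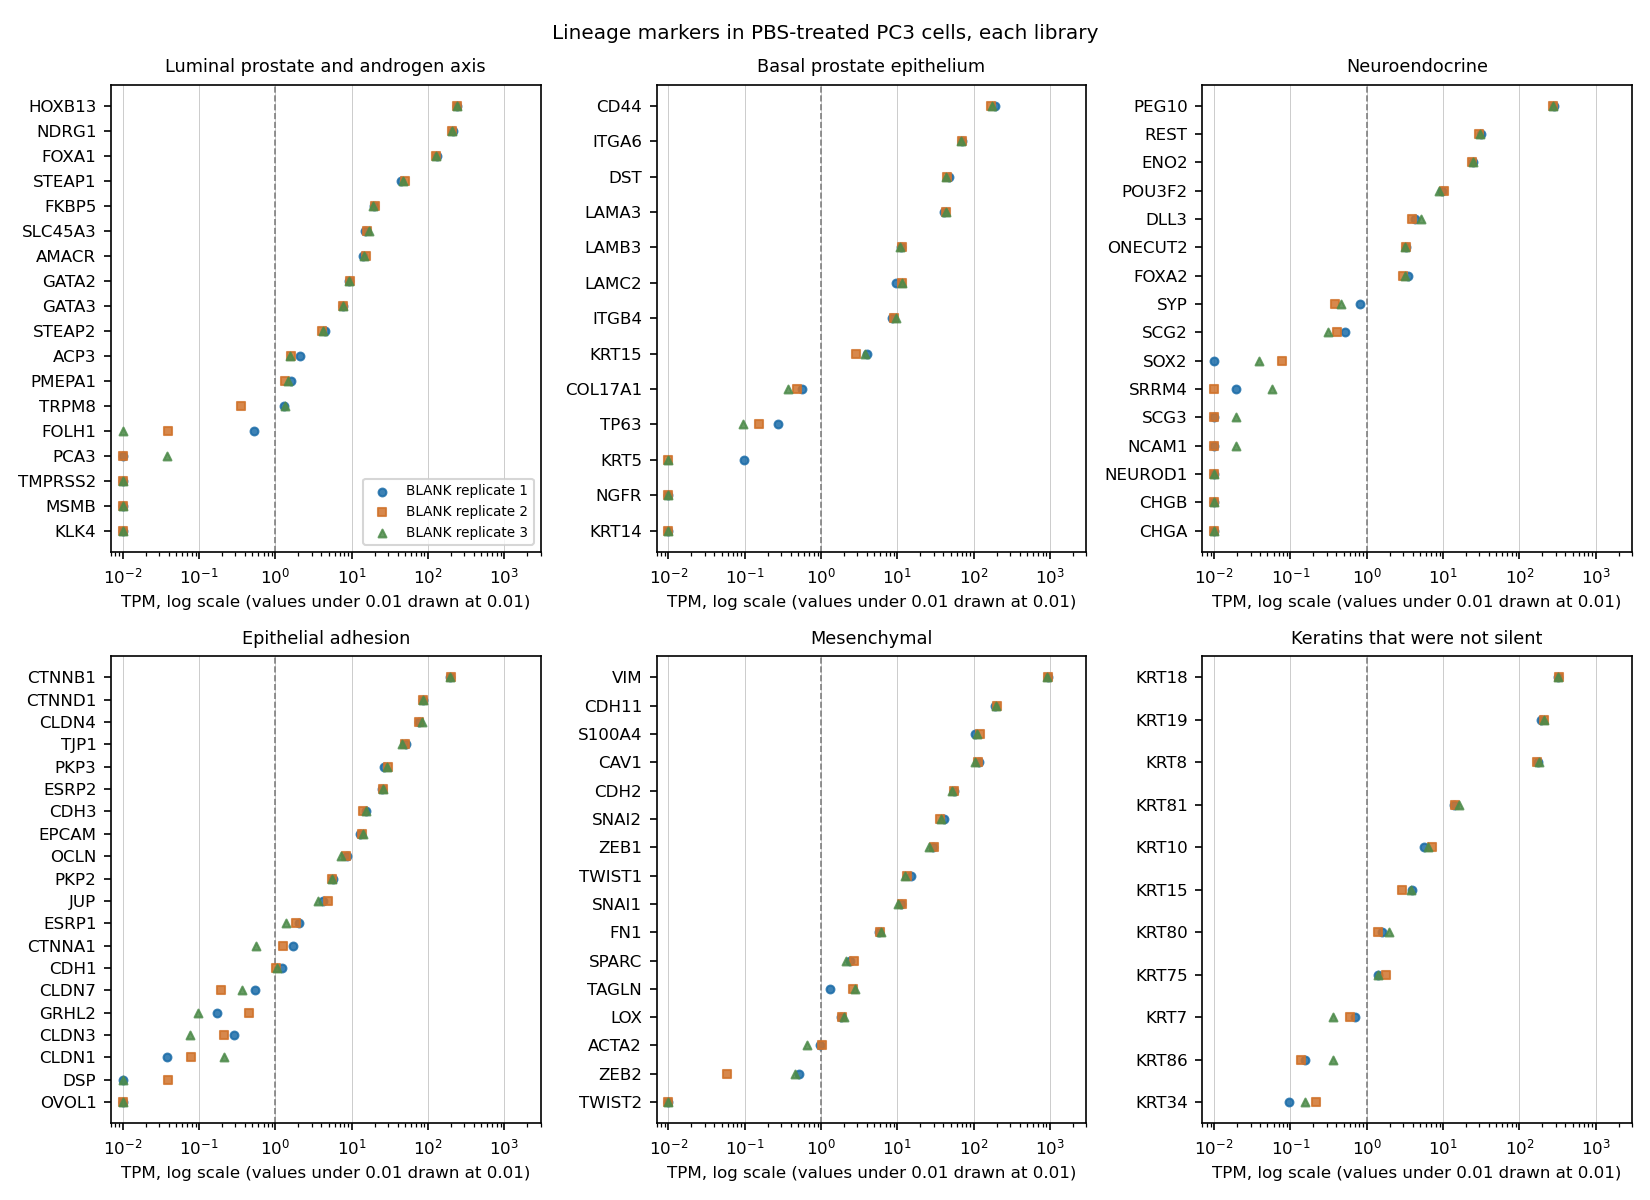
Level of lineage markers in the 3 BLANK libraries, as TPM on a log axis with values under 0.01 drawn at 0.01 and a dashed line at 1 TPM; each symbol is 1 library and genes are ordered by mean. HOXB13, VIM and KRT18 stand near or above 240 TPM in every library, whereas TMPRSS2, KRT14 and CHGA lie at 0.

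Epithelial and mesenchymal genes were read side by side, because carcinoma cells can carry both. Of 20 epithelial adhesion genes 13 were expressed and of 16 mesenchymal genes 13 were expressed. Among the epithelial genes the catenins CTNNB1, which also carries Wnt signals, and CTNND1 averaged 197 ± 4.19 and 86.4 ± 0.829 TPM. The tight junction genes CLDN4 and TJP1 averaged 79.0 ± 2.95 and 49.4 ± 2.82 TPM, and the adhesion molecule EPCAM 13.5 ± 0.608 TPM. E-cadherin, CDH1, stood just inside the limit for expressed at 1.21, 1.01 and 1.05 TPM. The desmoplakin gene DSP was silent and the claudins CLDN1, CLDN3 and CLDN7 averaged 0.109, 0.193 and 0.366 TPM.

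CTNNA1, which encodes the catenin that ties cadherins to actin, had 1.70, 1.26 and 0.555 TPM over its 6 rows in the table used here. Of that level 56.1% lay on a row that is not from RefSeq, at 1.33, 0.641 and 0 TPM. Other CTNNA1 transcripts have no row in the table used here and were not analysed here, so these values are not the level of the whole gene.

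On the mesenchymal side the intermediate filament gene VIM led with 938, 935 and 924 TPM (932 ± 7.28). The cadherin CDH11 had 195 ± 6.5 TPM, the calcium-binding protein S100A4 112 ± 7.66 TPM, the caveolin CAV1 112 ± 5.94 TPM and N-cadherin, CDH2, 54.1 ± 2.21 TPM. The transcription factors that repress epithelial genes were expressed too, with SNAI2 at 38.4 ± 2.60, ZEB1 at 28.7 ± 2.19, TWIST1 at 13.7 ± 1.45 and SNAI1 at 10.97 ± 0.606 TPM. TWIST2 had no count. N-cadherin lay above E-cadherin in every library, and the values did not overlap.

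Keratins, the intermediate filament proteins of epithelia, were concentrated in the simple-epithelium set. Of 31 keratin genes with a row 8 were expressed and 20 silent. KRT18 had 318, 336 and 325 TPM, KRT19 194, 214 and 209 TPM and KRT8 175, 171 and 179 TPM. KRT8 and KRT18 form the filament pair of simple epithelia, and both have many processed pseudogenes, so their levels are uncertain to the extent that reads are shared with copies. The next keratin was the hair keratin KRT81 at 14.9 ± 1.14 TPM, far below the first 3. KRT7 stood at 0.553 TPM, and the stratified-epithelium genes KRT6A, KRT16 and KRT17 were silent with means of 0.0128, 0.0191 and 0 TPM.

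The 250 bases before the annotated start of 4 lineage or adhesion genes are printed next because they show both the usual pattern of expressed and silent genes and its exceptions. They are RefSeq sequences of build GRCh38.p14, written 5′ to 3′ on the gene's strand, with every CG dinucleotide in capitals. The first 2 genes were expressed, FOXA1 at chr14:37595250-37595499 on the minus strand with 26 CG, and CLDN4 at chr7:73830746-73830995 on the plus strand with 4 CG. The other two were silent, KRT5 at chr12:52520395-52520644 on the minus strand with 6 CG, and NEUROD1 at chr2:181680518-181680767 on the minus strand with 24 CG.
FOXA1: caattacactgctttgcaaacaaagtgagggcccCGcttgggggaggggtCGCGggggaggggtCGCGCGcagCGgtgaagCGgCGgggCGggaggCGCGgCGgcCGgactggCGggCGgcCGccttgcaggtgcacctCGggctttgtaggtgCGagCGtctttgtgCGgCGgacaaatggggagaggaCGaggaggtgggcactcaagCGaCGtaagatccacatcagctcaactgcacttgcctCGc
CLDN4: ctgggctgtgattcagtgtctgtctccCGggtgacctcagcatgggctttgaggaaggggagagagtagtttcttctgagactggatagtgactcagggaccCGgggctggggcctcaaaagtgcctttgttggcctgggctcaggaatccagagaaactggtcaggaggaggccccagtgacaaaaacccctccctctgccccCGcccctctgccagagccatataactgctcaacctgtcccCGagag
KRT5: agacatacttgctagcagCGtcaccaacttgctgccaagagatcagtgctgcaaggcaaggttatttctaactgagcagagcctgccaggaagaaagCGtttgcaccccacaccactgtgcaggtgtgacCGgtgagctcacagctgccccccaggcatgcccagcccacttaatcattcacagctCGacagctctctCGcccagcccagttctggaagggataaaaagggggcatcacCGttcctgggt
NEUROD1: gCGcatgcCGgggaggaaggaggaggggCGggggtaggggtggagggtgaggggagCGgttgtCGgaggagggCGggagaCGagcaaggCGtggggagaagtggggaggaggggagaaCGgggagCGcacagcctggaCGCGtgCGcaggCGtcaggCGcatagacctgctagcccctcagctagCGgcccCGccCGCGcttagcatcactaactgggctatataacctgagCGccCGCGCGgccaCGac

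Promoters were counted for the 20387 genes with exactly 1 start in the promoter table that is also the 5′ end of the gene in RefSeq, of 22114 with exactly 1 start. The CG count of these 250 bases had a median of 22 in 6115 expressed protein-coding genes and of 6 in 1535 silent ones. The median over all 20387 was 9. At least 10 CG were present in 91.1% of expressed and in 39.8% of silent genes. FOXA1 and KRT5 lay on the side usual for their class. CLDN4, at 79.0 TPM with 4 CG, and NEUROD1, at 0 TPM with 24 CG, did not. CpG islands are known to mark the promoters of most broadly used genes, and DNA methylation was not measured here. The letters TATAAA, read on the gene's strand in the last 50 bases, occurred in 2.35% of expressed, 9.06% of silent and 3.30% of all these promoters. Among the most abundant 10% of expressed protein-coding genes, 667 promoters, they occurred in 8.25%, so these letters did not mark silent genes alone.

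**Figure D2:**
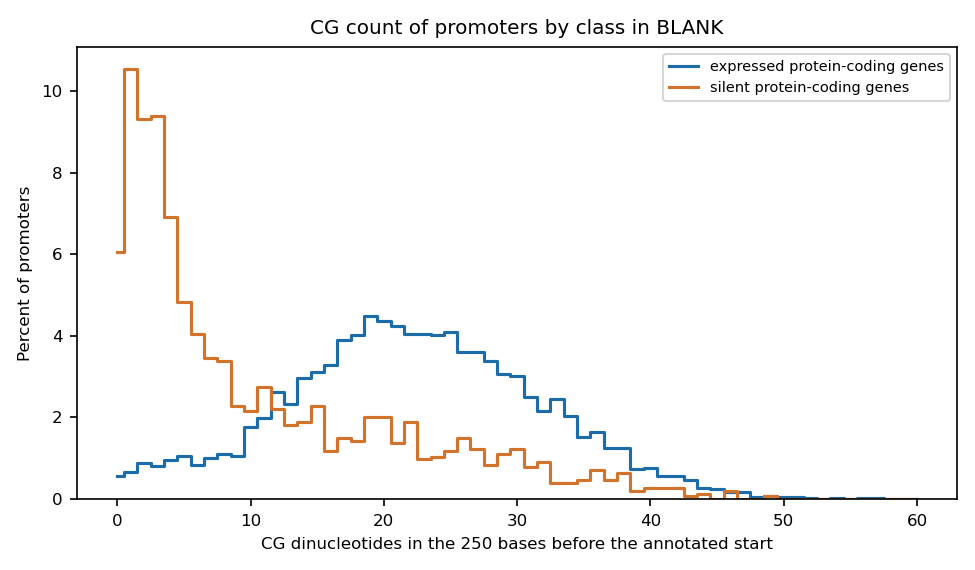
Percent of protein-coding promoters (vertical axis) by the number of CG dinucleotides in the 250 bases before the start (horizontal axis), for genes expressed and genes silent in BLANK. Silent genes pile up at low counts with a median of 6, and expressed genes spread around a median of 22.

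Receptors on the surface of these cells came next. Of 33 receptor tyrosine kinase genes with a row 21 were expressed. The ephrin receptor EPHA2 had 154, 160 and 153 TPM, MET, the receptor of hepatocyte growth factor, 116, 114 and 112 TPM, and EPHB4 59.0, 62.5 and 64.1 TPM. The 3 genes did not overlap. AXL, the GAS6 receptor, averaged 28.6 ± 0.0920, FGFR1 28.5 ± 1.52 and EGFR 27.7 ± 1.47 TPM, and the libraries of these 3 overlapped. ERBB2 stood at 10.2 ± 1.08 and ERBB3 at 0.776 ± 0.257 TPM. KIT, NTRK3 and FGFR3 had no count, and IGF1R averaged 0.263 ± 0.0223 TPM over its rows in the table used here.

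Several ligands of these receptors were read in the same libraries. HGF, the ligand of MET, averaged 0.212 ± 0.104 TPM. Among EGFR ligands AREG averaged 21.5 ± 0.425, TGFA 14.7 ± 0.215 and HBEGF 7.50 ± 0.599 TPM, while EGF itself averaged 0.398 ± 0.0940 TPM. The 3 first ligands were thus expressed together with EGFR, and MET was abundant with little HGF RNA.

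Cytokine, chemokine and TGF-beta receptors and other signalling receptors were broadly expressed, at 24 of 29 genes. The death-signalling tumour necrosis factor receptor TNFRSF1A led with 132 ± 2.85 TPM. The protease-activated receptors F2RL1 and F2R had 120 ± 3.47 and 46.4 ± 3.17 TPM, the lysophosphatidic acid receptor LPAR1 71.6 ± 0.441 TPM and the urokinase receptor PLAUR 42.8 ± 0.508 TPM. CXCR4, the chemokine receptor much studied in bone metastasis, was at 0.809, 0.544 and 0.631 TPM, and its ligand gene CXCL12 was silent. CXCR1 had no count and CXCR2 was silent, although CXCL1 and CXCL8, which signal through them, were expressed.

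All but 1 of 23 nuclear receptor genes were expressed, the exception being the progesterone receptor PGR. NR2F1, an orphan receptor of the COUP-TF kind, had 230, 237 and 234 TPM, and the lipid sensor PPARG 135, 124 and 128 TPM. NR2F6 averaged 99.8 ± 3.77 TPM, and PPARD 170 ± 7.81 TPM with fewer than 50% of its counts on RefSeq rows, which leaves it uncertain. Of the hormone receptors, the glucocorticoid receptor NR3C1 averaged 35.5 ± 1.60, the vitamin D receptor VDR 32.6 ± 0.735 and the oestrogen receptor ESR1 2.36 ± 0.186 TPM.

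Secreted signals were led by MIF, the macrophage migration inhibitory factor, at 1271 ± 6.27 TPM. DKK1, a secreted inhibitor of Wnt signalling that PC3 is known for, had 273, 280 and 268 TPM. Midkine, MDK, followed at 143 ± 1.37 TPM, VEGFC, which acts on lymphatic vessels, at 124 ± 6.78 TPM and TGFB1 at 105 ± 2.80 TPM. VEGFA averaged 31.8 ± 1.31 TPM. PTHLH, which encodes the parathyroid hormone-related protein of bone-resorbing tumours, averaged 3.99 ± 0.576 TPM, and the bone matrix gene SPP1 had no count. In all 25 of 35 growth factor genes were expressed.

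Of 23 cytokine and chemokine genes with a row 10 were expressed. The neutrophil chemokine CXCL1 had 137, 127 and 128 TPM, above IL18 at 36.9 ± 1.68, LIF at 14.3 ± 0.882, IL1B at 9.71 ± 1.16 and CXCL8 at 8.15 ± 0.812 TPM. IL6 stood at 0.0964, 0.175 and 0.191 TPM and TNF was silent. The receptor subunit genes that pair with IL6, IL6R and IL6ST, averaged 10.2 and 36.0 TPM.

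Among proteases and their inhibitors 15 of 27 genes with a row were expressed. The metalloproteinase inhibitor TIMP1 led with 179, 171 and 170 TPM. The lysosomal proteases CTSD and CTSB averaged 101 ± 2.63 and 85.5 ± 2.36 TPM, and the serine protease inhibitor SERPINE2 86.5 ± 1.26 TPM. The membrane-bound collagenase MMP14 averaged 52.2 ± 0.565, the urokinase gene PLAU 36.9 ± 0.950 and the collagenase MMP1 29.6 ± 1.11 TPM. MMP2, TIMP3, KLK5 and KLK10 had no count, and MMP9 was silent at 0, 0.0776 and 0 TPM. Urokinase and its receptor were both expressed, at 36.9 and 42.8 TPM.

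**Figure D3:**
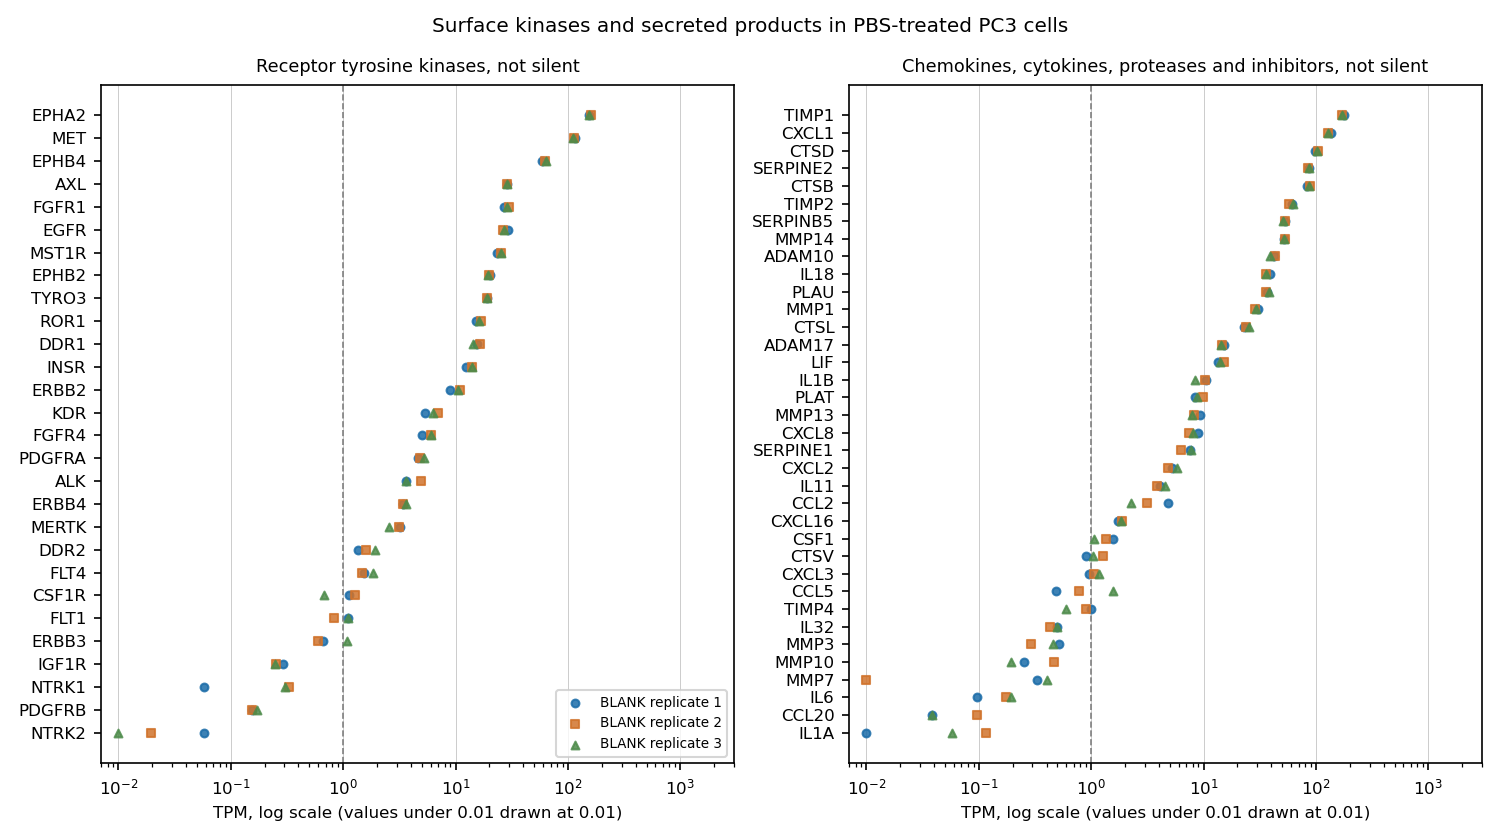
Level in the 3 BLANK libraries, as TPM on a log axis with values under 0.01 drawn at 0.01, of receptor tyrosine kinases (left) and of cytokines, proteases and inhibitors (right) that were not silent; each symbol is 1 library. EPHA2 and MET stand above 100 TPM on the left, TIMP1 and CXCL1 on the right, and HER-family member ERBB3 and IL6 fall below the dashed line at 1 TPM in at least 2 of 3 libraries.

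Integrins, the receptors for extracellular matrix, were dominated by the common beta chain ITGB1 at 552, 548 and 534 TPM. The alpha chains ITGA3, ITGA6 and ITGA2, which pair with it, averaged 120 ± 0.188, 70.0 ± 0.857 and 43.0 ± 1.28 TPM. The leukocyte chains ITGAL, ITGAM, ITGAX and ITGAD were silent, and 11 of 26 integrin genes were expressed. Of 26 HOX genes with a row 8 were expressed, and after HOXB13 these were led by HOXA9 at 58.1 ± 2.14, HOXA13 at 50.04 ± 2.98 and HOXA10 at 29.9 ± 1.07 TPM. From the B cluster HOXB3, HOXB5, HOXB6, HOXB8 and HOXB9 were silent although HOXB13 was the highest HOX gene.

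Tumour suppressor genes were nearly all transcribed, at 30 of 31. RNA level says nothing of whether the protein is intact. CDKN2A was the highest, at 274, 275 and 270 TPM, and 84.2% of it lay on the transcript NM_058195.3, which encodes the protein ARF. NF2 averaged 81.4 ± 1.42, the chromatin genes ARID1A 71.6 ± 0.958 and KMT2C 57.8 ± 0.801, RB1 26.8 ± 1.43 and SMAD4 15.3 ± 1.30 TPM.

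Oncogenes were led by MYC at 372, 353 and 369 TPM, the cyclin CCND1 at 256, 262 and 257 TPM and the kinase AKT1 at 177, 186 and 187 TPM. These 3 did not overlap. The ETS factor ETV4 averaged 94.8 ± 0.469 TPM, ETV5 52.9 ± 3.01 and ETV1 26.3 ± 0.479 TPM, while ERG, the ETS gene most often fused in prostate cancer, was silent. The phosphoinositide 3-kinase gene PIK3CB averaged 47.1 ± 0.490 TPM and PIK3CA 27.6 ± 0.954 TPM.

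Markers of other cell types were read as a check on the label. Of 5 immune genes with a row 2 were expressed, 1 lay in between and 2 were silent. The lysosomal gene CD68, which many cell types use, averaged 46.4 ± 2.30 TPM, and the pan-leukocyte gene PTPRC and NKG7 were silent. The list summed to 45.8 to 50.3 TPM per library. Of 6 endothelial genes 1 was expressed (PECAM1 at 2.07 TPM), the sum was 2.0 to 2.8 TPM and CLDN5 had no count. Of 8 fibroblast genes 3 were expressed, 3 lay in between and 2 were silent. The fibroblast list summed to 47.6 to 52.0 TPM, of which COL1A2 made 41.8 TPM, and the 2 silent genes, DCN and LUM, had no count. Blood and liver genes summed to 0.3 to 0.5 TPM. The list counts are drawn together in the bar chart of gene classes.

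**Figure D4:**
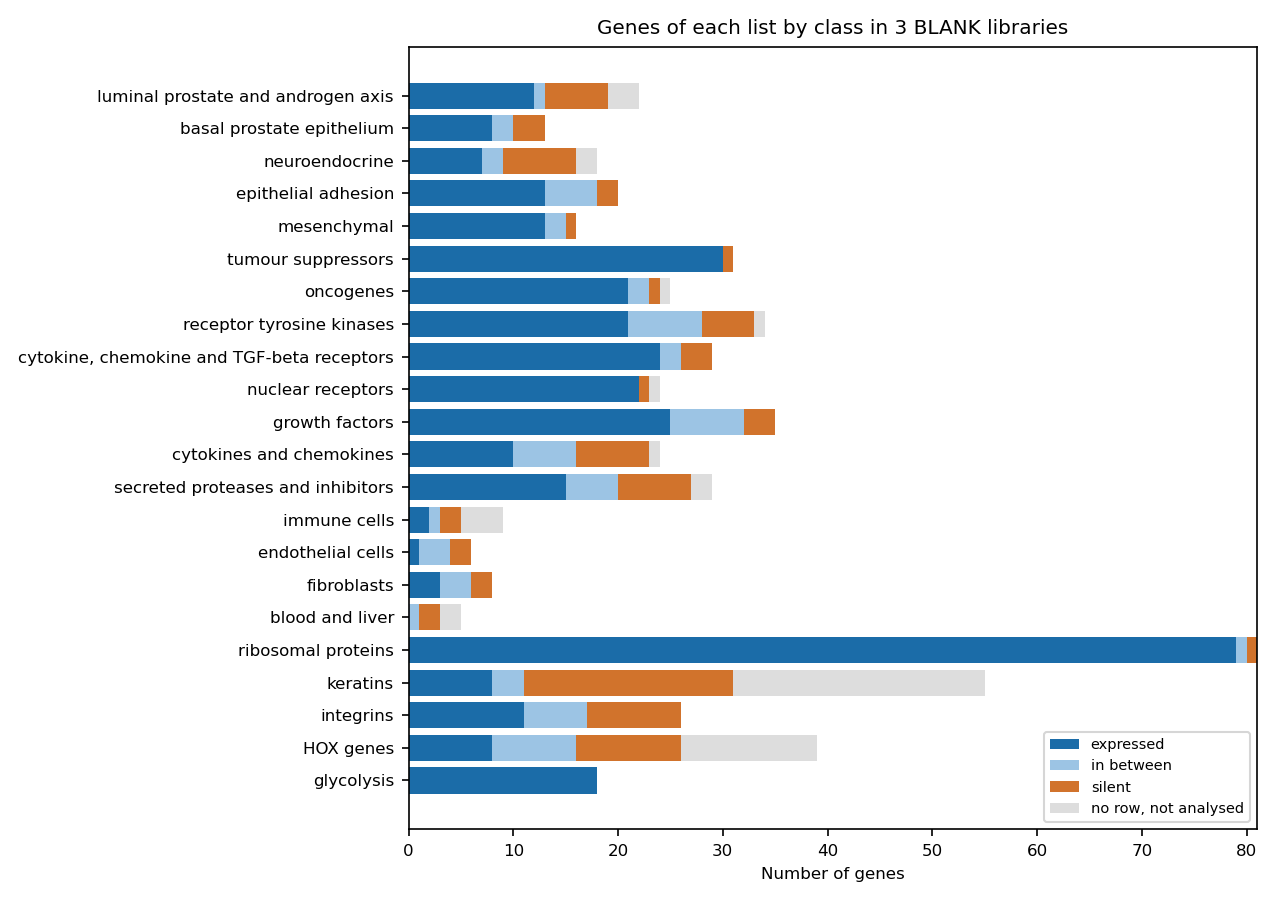
Number of genes (horizontal axis) of each of the 22 lists that were expressed, in between, silent or without a row in the table used here, in the 3 BLANK libraries. Glycolysis is expressed in all 18 genes, tumour suppressors in 30 of 31 and keratins in 8 of 31 with a row.

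The most abundant genes fell into those of uncertain assignment and the rest. Of the 20 highest genes, 10 had fewer than 50% of their counts on RefSeq rows and held 18.5% of all TPM. They included NEMF, ANKRD28, PCBD2, PARP2 and ARHGEF39 and 5 genes without a symbol, and their levels are uncertain. The other 10 were led by GAPDH, a glycolytic enzyme, at 6143 ± 105 TPM, the iron store FTH1 at 4944 ± 85.5 TPM, RPS24 at 4637 ± 37.9 TPM, ACTB at 4499 ± 145 TPM and RPS2 at 4339 ± 63.4 TPM. These genes have processed pseudogenes too. RPL41, NPM1 and ACTG1 followed at 3536, 3451 and 2935 TPM. Among the 100 highest genes with most counts on RefSeq rows 51 encode ribosomal proteins.

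Ribosomal protein genes took 10.7, 10.8 and 10.7% of TPM in the 3 libraries, and 79 of 81 were expressed, with a median of 1152 TPM. All 18 glycolysis genes were expressed, with a median of 456 TPM and 1.82 to 1.86% of TPM. Below GAPDH came ENO1 at 2713 ± 69.3, ALDOA at 1741 ± 23.7 and LDHA at 1528 ± 43.0 TPM. The glucose transporter SLC2A1 was at 55.0 ± 1.97 TPM.

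Many ribosomal protein RNAs are known to begin with a C followed by pyrimidines, the terminal oligopyrimidine tract through which the kinase mTOR controls their translation. The start windows of 4 of them and of 2 abundant glycolysis genes are printed because they show that shared letter pattern and its absence. Each holds the 10 bases before and the 20 from the annotated start in RefSeq GRCh38.p14, on the gene's strand, 5′ to 3′, with capitals for the unbroken run of C and T from the start base onward where it begins with C and holds at least 4 more bases.
RPL41, chr12:56116623-56116652, plus strand: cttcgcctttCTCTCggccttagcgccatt
RPS24, chr10:78033853-78033882, plus strand: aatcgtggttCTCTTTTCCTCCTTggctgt
RPS27, chr1:153990752-153990781, plus strand: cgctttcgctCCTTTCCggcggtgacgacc
RPL36, chr19:5690285-5690314, plus strand: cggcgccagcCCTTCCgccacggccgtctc
PGK1, chrX:78104238-78104267, plus strand: cccgcgcggtgttccgcattctgcaagcct
ENO1, chr1:8878667-8878696, minus strand: cggcgcggacagtatctgtgggtacccgga

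A C at the start followed by 4 pyrimidines was present in 40 of the 53 ribosomal protein genes counted, or 75.5%. The share was 3.93% over the 20387 promoters counted, 5.72% over expressed protein-coding genes and 15.6% over those of the most abundant 10%, 667 genes. Windows without the pattern lack these letters at the annotated start only. RPL41 at 3536 TPM and RPS24 at 4637 TPM carried it, and ENO1 at 2713 TPM and PGK1 at 1199 TPM did not.

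The 3 BLANK libraries were close to each other. Over 12735 genes with a mean of 100 or more counts the median coefficient of variation was 3.88%, against 2.81% for Poisson draws at the same means, and 1036 genes, 8.14%, exceeded 10%. Spread shrank with abundance, from a median of 7.36% at 100 to 300 counts to 1.90% above 10000 counts. The chi-square per degree of freedom was 3.70 between replicates 1 and 2, 3.46 between 1 and 3 and 1.83 between 2 and 3, so replicate 1 stood somewhat apart. All 3 values exceed counting noise, and no library was a copy of another. The chi-square is summed over genes, abundant ones of uncertain assignment included. Of these, BGIG9606_53846 had 565940, 455864 and 478925 counts in the 3 libraries. The part of such genes in the chi-square was not tested. The common biological coefficient of variation was 0.0304 in BLANK, against 0.0234 in AgNPs, 0.0467 in DOC and 0.0212 in COM.

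Genes of the highest spread were mostly near-copies or noncoding. SULT1A4 had 0.058, 11.5 and 7.76 CPM and its near-identical copy SULT1A3 had 17.3, 6.61 and 5.98 CPM. Their sum was 17.4, 18.1 and 13.7 CPM, with a coefficient of variation of 14.2% against 90.5% for SULT1A4 and 63.9% for SULT1A3. Both single values are uncertain. The other three were LINC02210, DHRS4-AS1 and BGIG9606_51797, whose highest library was 24.2 CPM and lowest 1.39 CPM.

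The baseline genes were then followed under treatment, each against the same 3 BLANK libraries, so the 3 comparisons share their controls. Over all 19986 genes tested with edgeR's quasi-likelihood test, 30.9% were called at an adjusted p below 0.05 after AgNPs, 17% after DOC and 49.6% after COM. Of 389 listed baseline genes that were tested, 42.7% were called after AgNPs (85 higher, 81 lower), 29.6% after DOC (41 higher, 74 lower) and 68.4% after COM (122 higher, 144 lower). The listed genes were more abundant than the rest, with a median log2 CPM of 5.87 against 3.73 over all genes tested, and the part of that in their share was not tested. A called change of 2-fold or more was seen in 13, 4 and 32 of the listed genes, or 3.34, 1.03 and 8.23%, against 2.39, 0.796 and 6.32% over all genes tested.

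Some lineage genes shifted in level. Of 12 luminal genes tested 2 rose and 6 fell after AgNPs and after COM, and 2 rose and 4 fell after DOC. Of 10 basal genes 3 rose and 2 fell after AgNPs, 2 and 0 after DOC and 5 and 3 after COM. Of 9 neuroendocrine genes 2 rose and 3 fell after AgNPs, 0 and 1 after DOC and 3 and 3 after COM. Shares over all genes were 14.9, 7.16 and 25.1% higher and 16, 9.81 and 24.5% lower after AgNPs, DOC and COM. HOXB13 had 301, 297 and 297 TMM-scaled CPM after AgNPs, 313, 299 and 302 after DOC and 196, 205 and 212 after COM, against 373, 371 and 373 in BLANK. It was lower in each treated group, without overlap, by a log2 change of -0.32 ± 0.029, -0.29 ± 0.029 and -0.87 ± 0.031 (SE; edgeR adjusted p = 3.76e-11, 6.34e-09 and 3.54e-23). PEG10 fell likewise, with log2 changes of -0.64, -0.21 and -0.90 after AgNPs, DOC and COM. NDRG1 rose, to 759, 773 and 771 CPM after COM against 331, 322 and 325 CPM in BLANK (log2 change 1.24 ± 0.028, edgeR adjusted p = 3.02e-29), and by 0.72 after AgNPs and 0.40 after DOC.

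Filament and cadherin genes were read next. VIM fell by 0.13, 0.13 and 0.20 on the log2 scale after AgNPs, DOC and COM. KRT8 rose by 0.20 after AgNPs and 0.22 after COM, and KRT18 fell by 0.20 after DOC and 0.16 after COM. The hair keratin KRT81 rose by 0.46 after AgNPs and 0.65 after COM, and KRT80 by 0.72 after DOC. Of 11 keratins tested 3 rose and 0 fell after AgNPs, and 1 rose and 1 fell after DOC. After COM 5 rose and 3 fell. Over all genes 14.9, 7.16 and 25.1% rose and 16, 9.81 and 24.5% fell after AgNPs, DOC and COM. The keratin counts after DOC and the falls after COM were near these shares. The list's median log2 change after COM was 0.35, against 0.03 over all genes. CDH1 had 2.7, 3.2 and 2.4 CPM after COM against 3.0, 2.5 and 2.6 CPM in BLANK, which did not pass (log2 change 0.03 ± 0.195, edgeR adjusted p = 0.927). CDH2 rose by 0.27 after AgNPs and 0.32 after COM. ESRP1, an epithelial splicing regulator, rose by 1.39 after AgNPs and 1.85 after COM.

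Secreted products moved in both directions. GDF15, a stress-induced cytokine, had 412, 402 and 399.8 CPM after COM against 9.9, 9.7 and 8.7 CPM in BLANK, 42.8-fold higher, and rose 27.8-fold after AgNPs and 2.63-fold after DOC. CXCL8 rose by 1.94 ± 0.091, 0.73 ± 0.1 and 2.69 ± 0.086 on the log2 scale after AgNPs, DOC and COM (edgeR adjusted p = 4.11e-19, 3.16e-06 and 1.55e-24), whereas CXCL1, the most abundant chemokine of BLANK, fell by 0.45, 0.34 and 0.67. DKK1 fell by 0.50, 0.35 and 0.93, and VEGFA rose by 1.07 after AgNPs and 1.54 after COM. Of 14 cytokine and chemokine genes tested 7 rose and 1 fell after AgNPs, 4 rose and 1 fell after DOC and 9 rose and 1 fell after COM; over all genes 14.9, 7.16 and 25.1% rose.

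Regulators moved as follows. MYC had 499, 514 and 502 CPM after COM against 862, 804 and 858 CPM in BLANK, a log2 change of -0.74 ± 0.030, and it fell by 0.50 after AgNPs. CCND1 fell by 0.28 after AgNPs and 0.50 after COM, and NR2F1 by 0.29 and 0.55. CDKN1A, the cell cycle inhibitor, which stood at 8.35 TPM in BLANK, rose 4.22-fold after AgNPs, 1.45-fold after DOC and 7.83-fold after COM. MET had 347, 353 and 358 CPM after COM against 345, 339 and 336 CPM in BLANK and did not pass in any treatment, with log2 changes of 0.02 after DOC and 0.05 after COM. On RefSeq rows only it passed after COM, with a log2 change of 0.08 (edgeR adjusted p = 0.00978).

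Ribosomal protein genes shifted by small amounts. Of 80 tested, 34 were lower and none higher after DOC and 51 lower and 1 higher after COM, while 9 were lower and 2 higher after AgNPs; over all genes 9.81, 24.5 and 16% were lower. The list's median log2 change was -0.13 after DOC, -0.18 after COM and -0.04 after AgNPs, against 0.01 to 0.03 over all genes. The DOC count rested on single libraries, with 62 lower without DOC replicate 1, 20 without DOC replicate 2 and 21 without DOC replicate 3, and the AgNPs count was 20 without DOC replicate 1 and 5 without AgNPs replicate 2. No ribosomal protein gene was higher after DOC under any alternative run, DESeq2 included. Of 18 glycolysis genes 3 were higher and 10 lower after AgNPs, 0 higher and 11 lower after DOC and 5 higher and 13 lower after COM. The DOC count was 6 without BLANK replicate 2 or without BLANK replicate 3, 7 without DOC replicate 2, without DOC replicate 3 or on RefSeq rows only, and 14 by DESeq2. Of the 40 most abundant genes with most counts on RefSeq rows, 5 were higher and 10 lower after AgNPs, 2 and 26 after DOC and 3 and 27 after COM. Over all genes 14.9, 7.16 and 25.1% were higher after AgNPs, DOC and COM, and 16, 9.81 and 24.5% were lower. Ribosomal protein genes make up 24 of the 40, so these counts largely overlap with those of the ribosomal list. FTH1, the ferritin heavy chain, had the highest log2 change of the 40 in each comparison, at 0.97, 0.14 and 1.21.

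**Figure D5:**
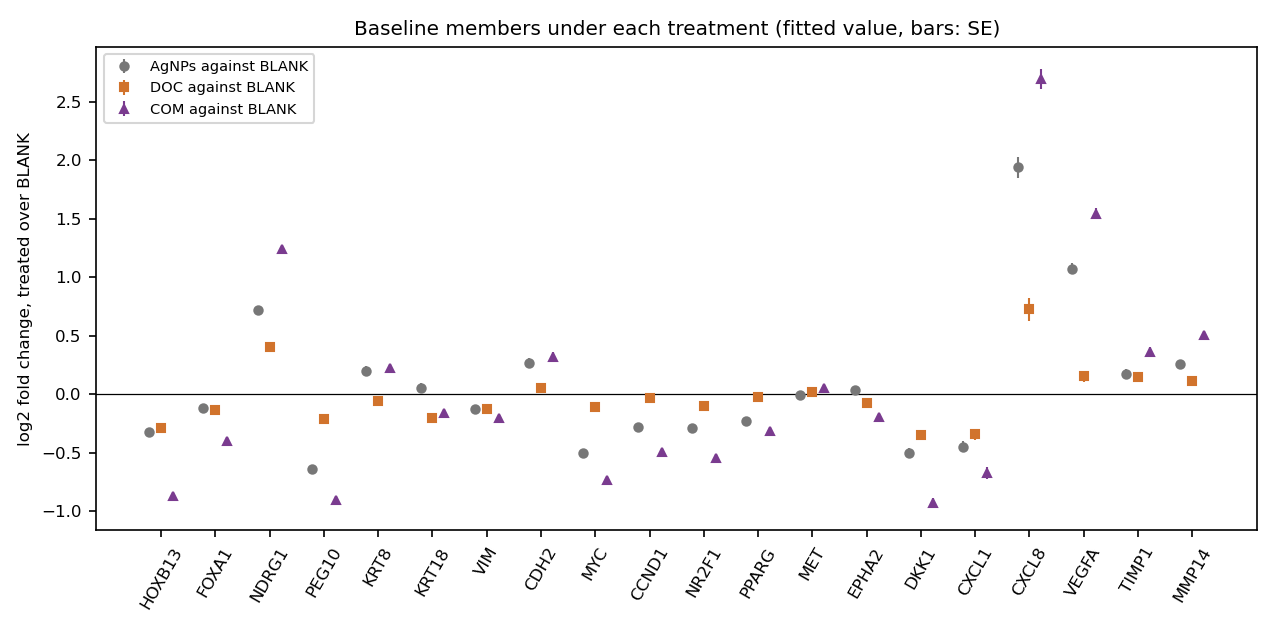
Fitted log2 fold change of 20 baseline genes (horizontal axis) after AgNPs, DOC and COM, each over BLANK, with bars of 1 SE (n = 3 libraries a group). CXCL8, VEGFA and NDRG1 lie above 0 in all 3 comparisons, HOXB13, PEG10, DKK1 and CXCL1 lie below 0 in all 3, and MET lies near 0.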

How the data were processed

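RNA of 12 PC3 libraries (4 groups of 3) was analysed from 1 deposited table of transcripts. Per the submitters' processing notes, HISAT2, Bowtie2 2.2.5, RSEM and genome build GRCh38 were used, with no roles given. Raw expected counts for each transcript are in the deposited read-count columns. FPKM in steps of 0.01 are in the deposited expression columns. The header names no unit, so this unit was worked out from the values, since counts divided by them gave lengths that ranked like annotated transcript lengths (Spearman 0.873 across 5814 transcripts). The table has 177700 linear rows, 103539 of them RefSeq, and 44096 circular rows, which were left out.

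Expected counts of linear rows were summed by gene and rounded. FPKM were summed and rescaled to TPM. Positions and names are those of RefSeq. A gene is called uncertain where fewer than 50% of its BLANK counts lie on RefSeq rows or it has close copies. The test was edgeR's quasi-likelihood test (edgeR 4.0.16, R 4.3.3) on these counts (TMM, filterByExpr by group, 1 robust fit of all 12 libraries, two-sided, Benjamini-Hochberg over 19986 genes), and the method was tested on simulated data. Depth was 22573481 to 22769479 counts in BLANK and 10996446 to 19421873 in the treated libraries. Replicates were not blocked.

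The genes named were the 20 most abundant, in each list the 4 highest members, a fixed set of lineage, receptor and suppressor genes, the largest called change per list and treatment, and the 5 genes of highest spread. Further list members are named with their values, and these were chosen after their values were seen. The members and lists were chosen with earlier results of these data known. Alternatives were DESeq2 1.42.0, its size factors, no filter on low counts, a replicate block, RefSeq rows only, other limits for expressed and silent, and leaving out each library. Some listed genes are counted in their lists but not reported here by name.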

Additional observations from a re-analysis of the deposited data

How the results depend on the processing

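The 17847 silent genes became 8451 on RefSeq rows only and 7172 where every BLANK library had to round to 0 counts. The 100 most abundant genes held 35.3% of TPM, 24.25% on RefSeq rows only and 18.16% as CPM, the last because CPM does not divide by length. Without 1 BLANK library at a time there were 16594 to 16652 expressed and 18506 to 18665 silent genes, the share was 35.15 to 35.6% and the median coefficient of variation 2.81 to 3.34%, the lowest without replicate 1. Without 1 of the 12 libraries the genes called numbered 5181 to 6635 after AgNPs, 2134 to 4027 after DOC and 8922 to 10261 after COM, and the lowest DOC count was without DOC replicate 2. DESeq2 called 4530, 2291 and 7961.

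Same-numbered libraries did not pair in the comparisons made: BLANK deviations correlated with treated ones from -0.159 to 0.093. Between AgNPs and COM, which were not compared, all 3 did exceed 0.1 (0.161, 0.202 and 0.131), and the other pairs there reached 0.089. With the replicate block 6039, 3206 and 9812 genes were called. Of 152 named gene and treatment pairs 115 kept their call under every alternative and 0 reversed. On RefSeq rows alone 390 of 520 genes' TPM moved by more than 1 SD, and the median ratio over the 367 at 1 TPM or more was 1.38. RefSeq rows held 71.76 to 72.72% of TPM in BLANK and were rescaled to the full total. A gene wholly on RefSeq rows rises by this rescaling alone, so the count of moved genes includes that rise. Depth limits genes under about 3 counts, and levels of the uncertain genes rest on rows not from RefSeq.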

Other observations

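Several of the 20 most abundant genes have a small noncoding RNA gene or mitochondrial pseudogenes next to or inside them. PARP2 averaged 3693 TPM over all rows and 69.2 TPM on RefSeq rows alone, and RPPH1, the RNase P RNA gene, starts 224 bases away. NEMF averaged 10774 TPM over all rows and 60.7 TPM on RefSeq rows, with RN7SL3, a signal recognition particle RNA gene, 828 bases away. ARHGEF39 averaged 3371 and 8.77 TPM, with RMRP, the RNase MRP RNA gene, 1324 bases away. ANKRD28 averaged 8358 and 37.5 TPM and holds the pseudogene RN7SL4P, and PCBD2 averaged 6747 and 7.12 TPM and holds pseudogenes of mitochondrial genes. TPM on RefSeq rows alone are rescaled to the same total over those rows. The origin of these reads was not tested.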
